A study of Mus musculus with 4 samples.

Results

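The Eph receptors and ephrins described here are 10 genes: the EphA receptors Epha2, Epha3, Epha4 and Epha7, the EphB receptors Ephb2, Ephb3 and Ephb4, the ephrin-A ligand Efna1 and the ephrin-B ligands Efnb1 and Efnb2. They were taken by gene symbol in the annotation of the array's probes, which names 16390 genes in all. Each of the 10 had 1 probe with a value on every array. The whole family in the annotation has 22 genes, and the other 12 are given for comparison. The study compared NSCL61 cells, a mouse glioma-initiating line derived from p53-deficient neural stem cells that overexpress an oncogenic HRas, with the same cells carrying a short hairpin RNA (shRNA) against Eva1, an adhesion molecule gene now named Mpzl2. The control group has 2 arrays labelled with the name of the line, and the series title calls these cells control shRNA cells. The Eva1 shRNA group has 2 arrays labelled as the line with shRNA. All 4 samples share the strain C57BL6, an origin in brain at postnatal day 0 (P0), the p53-deficient background and the oncogenic HRas. The protocols give hygromycin selection of 1 week in one place and of 2 weeks, for the Eva1 shRNA cells, in another. They do not say how many hairpins or clones were used, nor that the replicate arrays are of separate cultures, so the p-values cover the spread of these arrays alone, and that spread may be technical.

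Eph receptors are receptor tyrosine kinases, and their ligands, the ephrins, are held on the surface of the neighbouring cell, by a lipid anchor in the ephrin-A class and by a transmembrane segment in the ephrin-B class. Binding between cells signals in both directions, forward through the receptor's kinase and in reverse through the ligand's cell, and mostly changes the cytoskeleton, so that cells repel, sort or adhere. EphA receptors mainly bind ephrin-A ligands and EphB receptors mainly bind ephrin-B ligands, while Epha4 binds both classes. In the nervous system the family is known for axon guidance, for boundaries between groups of cells and for the niche of neural stem cells, and in gliomas for migration and growth.

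Levels are deposited intensities on a linear scale that the authors scaled to a median near 25 on every array, or log2 of these after quantile normalization. A log2 change is Eva1 shRNA minus control, with its standard error (SE), from limma's moderated test (two-sided, Benjamini-Hochberg adjustment over 13765 genes, threshold 0.05). Replicate arrays correlated at 0.991 (control) and 0.993 (Eva1 shRNA) across probes. The targeted gene, Mpzl2, averaged 54.7 ± 0.376 in the control cells and 7.21 ± 1.41 in the Eva1 shRNA cells (SD, n = 2 each; 8.20 and 6.21 on the latter's arrays), a log2 change of -3.12 (SE 0.16, adjusted p = 0.00105). Among neural stem cell markers 5 were measured on every array, and Sox2 was not analysed here. Of the 5, the radial glia gene Fabp7 was called lower (22.1 and 24.6 in the control cells, 12.3 and 12.2 in the Eva1 shRNA cells, log2 change -1.15, adjusted p = 0.00521). The intermediate filament genes Nes (log2 change -0.47) and Vim (0.33) were not called, although neither overlapped between the groups. Msi1 (-0.24) and Pax6 (-0.31), the others of the 5, were not called. Their groups overlapped in the deposited intensities but not after normalization, where 66.7% of all genes did not overlap. Prom1 was blank on control array 2 and so was not tested. It had 3.25 on control array 1 and 11.8 and 9.76 in the Eva1 shRNA cells. Endothelial markers, of interest because Efnb2 and Ephb4 are known vessel genes, had summed intensities of 29.8 and 32.7 in the control cells and of 28.2 and 29.2 in the Eva1 shRNA cells, and Pecam1, Cdh5 and Tek were blank on some arrays. The summed intensity of 6 fibroblast and smooth muscle markers was 142 to 170 in the control cells and 391 to 534 in the Eva1 shRNA cells. Of these Acta2 (log2 change 6.22) and Col1a2 (0.76) were called higher. Tagln, the other smooth muscle gene (-0.35), Lum (-0.56) and Col1a1 (-0.15) were not called, and their groups overlapped. Without Acta2 the sum was 138 to 166 and 75.1 to 125, where Dcn had 117 and 93.0 against 55.3 and 15.5 without a call (adjusted p = 0.0532). The 5 neuron markers with a probe summed to 72.1 and 73.1 in the control cells and to 101 and 117 in the Eva1 shRNA cells. Most of that rise was Tubb3 (29.0 and 29.5 against 50.4 and 71.2), which was called higher. Snap25 (log2 change 0.13), Syt1 (-0.56), Map2 (-0.26) and Dcx (-0.11) were not called. The 6 microglia markers summed to 215 to 242 in the control cells and to 161 to 166 in the Eva1 shRNA cells. Among the microglia markers Cd68 was called lower (181 and 148 against 77.3 and 89.3). Csf1r (34.0 and 38.0 against 53.0 and 44.5) and Cx3cr1 (2.68 and 3.29 against 4.68 and 5.17) were higher without overlap or a call. Itgam and Ptprc were blank on some arrays. The part of these marker genes in the results below was not tested. In a whole culture, fewer cells of a type and less RNA per cell cannot be told apart.

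Among the 10 Eph and ephrin genes, 3 rose and 1 fell, and the remaining 6 gave no call. Efnb2, Epha4 and Epha7 were higher in the Eva1 shRNA cells and Efnb1 was lower. Over all 13765 genes tested 26.0% were called, 12.5% higher and 13.5% lower, so many genes outside the family moved as well. The share called among the 10 genes was 40.0%, and no test of the share was made. The median log2 change was 0.03 over the 10 genes and -0.01 over all genes tested. Without regard to sign the median size was 0.51 over the 10 genes and 0.36 over all genes. After normalization the groups did not overlap for 6 of the 10 genes, 4 higher and 2 lower, and the same held for 66.7% of all genes, 32.6% higher and 34.1% lower. In the deposited intensities, before normalization, 5 were higher without overlap (45.7% of all genes) and 2 lower (22.8% of all genes).

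**Figure D1:**
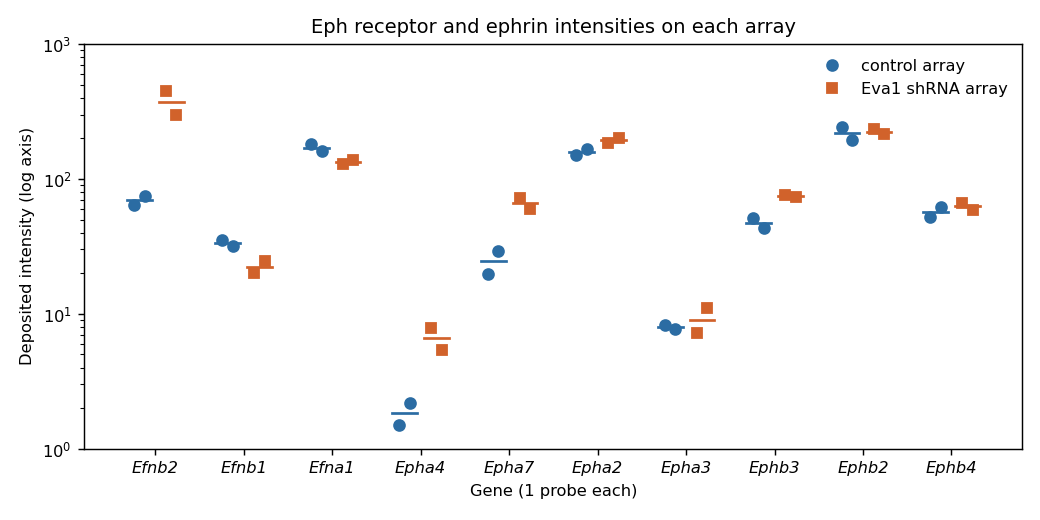
Deposited intensity (log axis) of the 10 Eph and ephrin genes on each array, with control arrays as blue circles, Eva1 shRNA arrays as orange squares and the group mean (n = 2) as a bar. Efnb2 lies at 64.2 and 75.2 in the control cells and at 449 and 298 in the Eva1 shRNA cells, and Epha4 is near the lowest values of the arrays in the control cells. Heights of different genes come from different probes and are not to be compared.

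The promoter sequences of the 4 genes that passed the test are shown because 3 of them rose together and 1 fell. Each is the 250 bases before the annotated start of the gene, read 5′ to 3′ on the gene's strand, from RefSeq's windows on build GRCm38.p6. For Epha7 another annotated start lies downstream, with its window at chr4:28812895-28813144, and the first is printed. Capitals mark matches, on either strand, to 6 short motifs: TATAAA, a core promoter box, CCAAT, the box bound by NF-Y, GGGCGG, the core bound by Sp factors, CACGTG, the palindrome of basic helix-loop-helix factors, TGANTCA, the site of AP-1, and TGGGAA, the core bound by the Notch pathway's RBPJ.
Efnb2, minus strand, chr8:8661243-8661492: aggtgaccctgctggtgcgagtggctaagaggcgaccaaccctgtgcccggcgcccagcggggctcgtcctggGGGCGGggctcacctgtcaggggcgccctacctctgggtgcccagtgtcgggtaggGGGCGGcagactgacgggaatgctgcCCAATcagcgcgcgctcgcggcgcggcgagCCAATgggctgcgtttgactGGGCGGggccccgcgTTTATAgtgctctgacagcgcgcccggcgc
Epha4, minus strand, chr1:77515089-77515338: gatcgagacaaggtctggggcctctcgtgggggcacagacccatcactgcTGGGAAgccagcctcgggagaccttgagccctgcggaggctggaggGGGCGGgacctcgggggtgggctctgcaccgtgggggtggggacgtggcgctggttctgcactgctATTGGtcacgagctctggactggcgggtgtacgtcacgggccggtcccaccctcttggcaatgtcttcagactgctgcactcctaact
Epha7, plus strand, chr4:28812881-28813130: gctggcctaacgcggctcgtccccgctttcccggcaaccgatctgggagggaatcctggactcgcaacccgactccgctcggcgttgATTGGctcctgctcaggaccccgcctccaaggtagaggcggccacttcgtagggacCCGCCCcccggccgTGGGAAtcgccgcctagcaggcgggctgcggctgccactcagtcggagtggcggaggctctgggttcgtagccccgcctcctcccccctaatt
Efnb1, plus strand, chrX:99135811-99136060: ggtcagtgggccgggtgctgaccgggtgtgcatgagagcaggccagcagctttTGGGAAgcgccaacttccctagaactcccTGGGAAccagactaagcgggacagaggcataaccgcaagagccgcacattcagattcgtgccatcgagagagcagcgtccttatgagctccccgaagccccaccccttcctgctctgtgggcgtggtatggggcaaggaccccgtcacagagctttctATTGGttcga
In the Efnb2 window a TATAAA match on the opposite strand began 30 bases before the start, and the window held 3 GGGCGG and 2 CCAAT matches. GGGCGG was found in all 3 promoters of the genes that rose and not in that of Efnb1, but also in 4 of the 6 members that did not pass the test, and in 32.7% of 32851 RefSeq windows of this length. CCAAT was in the windows of all 4 called genes, in those of 2 of the 6 others and in 33.8% of all windows. TGGGAA was in Epha4, Epha7 and Efnb1, in 0 of the 6 members that did not pass, and in 21.6% of all windows. In the rest of the family these 2 motifs did not follow the calls. Efna5 and Efna3, which were called, had neither CCAAT nor TGGGAA. Efna4, Epha6, Epha8, Epha10 and Ephb1, without a call, had CCAAT, and Epha6 also had TGGGAA. Epha1, Ephb6 and Efna2, also without a call, had neither, nor did the untested Epha5. TATAAA was in 12.4% of all windows and, among the 10 genes, in Efnb2. CACGTG and TGANTCA, in 6.02% and 6.75% of all windows, had no match in these letters for any of the 10 genes. The windows of Efnb2 and Epha7 held 27 and 25 CpG dinucleotides, those of Epha4 and Efnb1 14 and 13, and the median of all windows was 6. Over all windows of the 10 genes, called or not, the count was 9 to 27, so none lay below that median. The other Epha7 window, which overlaps the printed one, held 23 CpG dinucleotides and 2 CCAAT matches where the printed one has 1. No match overlapped another motif's match in the 4 windows, and a match is a description of the letters, not a measured binding site.

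Efnb2, the transmembrane ligand ephrin-B2 that is known from arteries and from neural progenitors, rose most among the 10 genes. Its intensities were 64.2 and 75.2 in the control cells and reached 449 and 298 in the Eva1 shRNA cells. Both Eva1 shRNA arrays lay far above both control arrays, and they differed more from each other than the control arrays did. The normalized log2 level was 6.22 ± 0.13 in the control cells and 8.42 ± 0.38 in the Eva1 shRNA cells (SD, n = 2 each). Efnb2 was 4.60-fold higher, a log2 change of 2.20 (SE 0.22, limma, adjusted p = 0.00329). It kept its call under all 12 other settings tried, with log2 changes of 1.94 to 2.47 and a highest adjusted p of 0.0285, reached without control array 1.

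Efnb1, the X-linked transmembrane ligand ephrin-B1, moved the other way. Its intensities were 35.4 and 31.7 in the control cells and 19.9 and 24.5 in the Eva1 shRNA cells, so the groups did not overlap. Efnb1 was 1.75-fold lower, a log2 change of -0.81 (SE 0.19, limma, adjusted p = 0.0316). The call was lost whichever array was left out (adjusted p 0.0569 to 0.148), with the authors' scaling (0.0516) and with blank cells filled (0.0577), and with 16 intensity units added before log2 the change was -0.51.

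Efna1, the lipid-anchored ligand ephrin-A1 and the main partner of Epha2, did not pass the test. Its intensities were 180 and 160 in the control cells and 128 and 138 in the Eva1 shRNA cells, without overlap. Efna1 had a log2 change of -0.54 (SE 0.15, limma, adjusted p = 0.0544, 95% interval -0.93 to -0.16 before adjustment). It passed, and was lower, when the dimmest 25% of probes were dropped (adjusted p = 0.0160), when 16 units were added (0.00640) and under a variance prior that follows intensity (0.00628).

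Epha4, the receptor that binds ephrins of both classes, rose from very low intensities. It had 1.49 and 2.19 in the control cells and 7.88 and 5.43 in the Eva1 shRNA cells, while the lowest value of any probe was 1.44 or 1.42 on a control array. The control values therefore stood at or near the bottom of the measured range, and the size of the change is not settled. Epha4 had a log2 change of 1.79 (SE 0.27, limma, adjusted p = 0.00967), and of 0.31 with 16 units added (adjusted p = 0.0312). It did not pass without Eva1 shRNA array 1 (adjusted p = 0.0526), and it was not tested once the dimmest 25% of probes were left out.

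Epha7, a receptor of ephrin-A ligands in the developing cortex, rose from intensities near the array median of 25. Its intensities of 19.8 and 29.1 in the control cells and of 72.3 and 60.0 in the Eva1 shRNA cells did not overlap. Epha7 was 2.39-fold higher, a log2 change of 1.26 (SE 0.21, limma, adjusted p = 0.0121), and 0.89 with 16 units added. Its adjusted p was 0.0708 when Eva1 shRNA array 1 was left out and 0.0526 when array 2 of that group was.

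The other EphA receptors among the 10 genes gave no call. Epha2, a receptor often abundant in glioma, had 152 and 167 in the control cells and 183 and 202 in the Eva1 shRNA cells. These deposited intensities did not overlap, as for 45.7% of all genes in that direction, but the normalized levels did, at 7.34 and 7.46 against 7.40 and 7.61. The log2 change of Epha2 was 0.10 (SE 0.15, limma, adjusted p = 0.663), with a 95% interval of -0.28 to 0.49. Epha3, a receptor known from mesenchymal glioma cells, had 8.27 and 7.74 against 7.17 and 11.0, with overlapping groups and a log2 change of -0.09 (95% interval -0.73 to 0.56). The missed threshold does not show equal levels, and these unadjusted intervals cover only the spread of these arrays after quantile normalization. With the authors' scaling the log2 change was 0.27 for Epha2 and 0.15 for Epha3, also without a call.

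None of the EphB receptors was called. Ephb3, a receptor of ephrin-B ligands known from boundary formation in the gut, came closest, with 51.0 and 43.6 in the control cells and 76.1 and 73.6 in the Eva1 shRNA cells. These groups did not overlap, and Ephb3 had a log2 change of 0.47 (SE 0.16, limma, adjusted p = 0.0801, 95% interval 0.08 to 0.87 before adjustment). It was called higher under the authors' scaling (adjusted p = 0.0296), once the dimmest 25% of probes were dropped (0.0296), once 16 units were added (0.0203) and under a variance prior that follows intensity (0.0243).
Ephb2, a receptor of axon guidance and synapses, had 244 and 196 in the control cells and 234 and 216 in the Eva1 shRNA cells, with a log2 change of -0.12 (95% interval -0.54 to 0.29). Ephb4, best known as the receptor of ephrin-B2 in veins, had 51.8 and 61.4 against 65.7 and 59.2, with a log2 change of -0.04 (95% interval -0.42 to 0.35). For both genes the groups overlapped, and the interval of each lay below the change of 2.20 measured for Efnb2. Over all 5 EphB receptors of the annotation 0 were called by limma, and 1, Ephb3, had an unadjusted p under 0.05. Over all 13765 genes 26.0% were called, and 2740 higher and 2786 lower had such a p. No test of these counts was made.

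**Figure D2:**
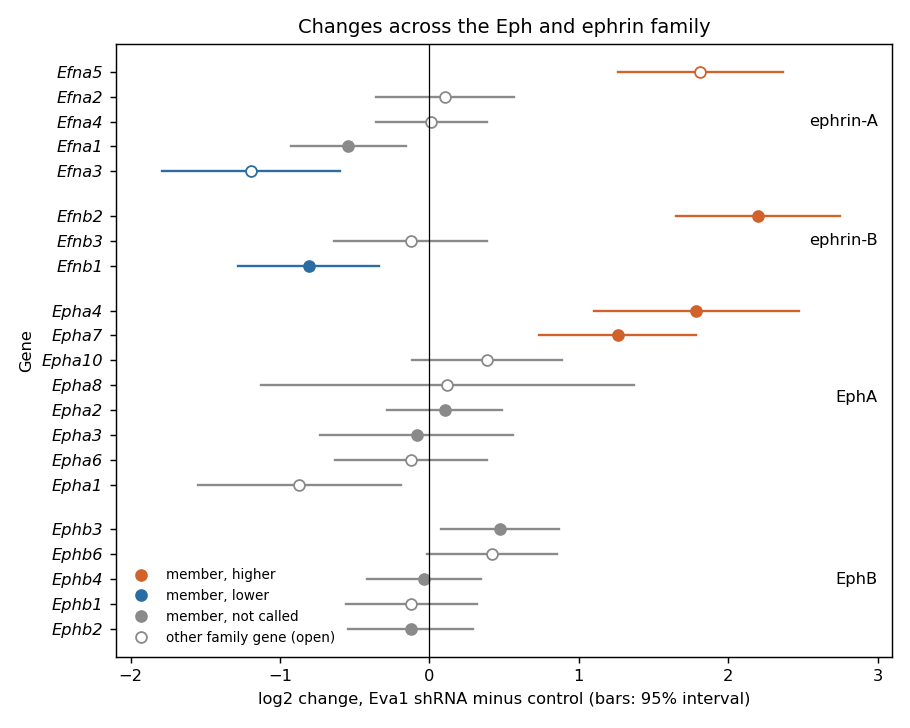
Log2 change (Eva1 shRNA minus control, horizontal axis) of the 21 family genes measured on all 4 arrays, grouped by class, with 95% intervals that are not adjusted for the number of genes. Filled points are the 10 genes described here and open points the rest of the family; orange was called higher, blue lower and grey not called. The ephrins reach from -1.19 (Efna3) to 2.20 (Efnb2), while the EphB receptors lie between -0.12 and 0.47.

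Of the 12 family genes outside the 10, 11 were measured on all 4 arrays, and Epha5 was blank on control array 1 and at 1.48 to 2.30 on the others. Of the 11, 1 rose, 1 fell and 9 did not pass, again beside 26.0% of all genes called. Efna5, a lipid-anchored ligand that guides retinal axons, had 11.4 and 8.35 in the control cells and 42.5 and 37.0 in the Eva1 shRNA cells. Its groups were well apart, with a log2 change of 1.81 (SE 0.22, limma, adjusted p = 0.00525), and it was called under all 12 other settings, where the change with 16 units added was 0.99. Efna3, another lipid-anchored ligand, had 15.5 and 13.9 against 6.23 and 9.01 and a log2 change of -1.19 (SE 0.24, limma, adjusted p = 0.0208). With 16 units added the change of Efna3 was -0.47, and its adjusted p was 0.0969 and 0.0596 when control array 1 or 2 was left out, and 0.0769 when Eva1 shRNA array 1 was. The kinase receptor gene Epha1, with intensities of 1.55 to 4.06, had a log2 change of -0.87 (adjusted p = 0.0687) and Efna4, a ligand measured at 80.3 to 98.6, one of 0.01. The remaining 7, Epha6, Epha8, Epha10, Ephb1, the kinase-inactive Ephb6, Efna2 and Efnb3, had log2 changes from -0.13 to 0.42 without a call.

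By class, the whole family thus held 2 rises and 2 falls among the 8 ephrins measured, Efnb2 and Efna5 up and Efnb1 and Efna3 down, and 2 rises among the 13 receptors, both of them EphA. Over the 21 genes measured 4 rose, 2 fell and 15 did not pass, so that 28.6% were called beside 26.0% of all genes, and the median log2 change was 0.01. The groups of 11 of the 21 genes did not overlap, beside 66.7% of all genes. Of the 6 called, 5 were at least 2-fold apart, all but Efnb1. With 16 units added, a setting that shrinks changes at low intensity, Efnb2 (log2 change 1.99) remained so, while Efna5 had 0.99, Epha7 0.89, Epha4 0.31 and Efna3 -0.47.

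The genes with the most similar pattern to Efnb2 over the 4 arrays, by the smallest Euclidean distance between the log2 deviations from each gene's own mean, were Fam107b (distance 0.13), Ak5 (0.19), an adenylate kinase gene, and Enpp2 (0.22), which encodes autotaxin. Their log2 changes were 2.14, 2.33 and 2.03. Closest to Efnb1 were Renbp (0.03), Shkbp1 (0.05) and Serpinb6a (0.05), with changes of -0.80, -0.79 and -0.83. With 4 arrays such a likeness is mostly that of the group difference.

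Genes through which Eph receptors and ephrins signal were read from a list of 50 partners, of which 37 were measured on all 4 arrays. Of these 37, 6 fell, 0 rose and 31 did not pass (limma), and 16.2% were called beside 26.0% of all genes and 13.5% called lower. Of the 37, 1 higher and 9 lower had an unadjusted p under 0.05 (limma). Over all 13765 genes 2740 higher and 2786 lower did, and no test of these counts was made. The median log2 change of the list was -0.11. The falls were among exchange factors and other GTPase regulators (2 of 9), adaptors (2 of 8) and phosphatases (2 of 4). Inppl1, a lipid phosphatase gene, was listed among the adaptors.

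Both GTPase regulators that fell act directly below Epha4 in neurons. Chn1, alpha-chimaerin, which turns off Rac downstream of Epha4, had 49.9 and 55.1 in the control cells and 12.2 and 13.3 in the Eva1 shRNA cells. Ngef, ephexin, the exchange factor bound to EphA receptors that activates RhoA, had 342 and 322 against 87.2 and 98.0. In both genes the groups were far apart and the replicates close, with log2 changes of -2.24 (SE 0.15, adjusted p = 0.00134) for Chn1 and -2.04 (SE 0.15, adjusted p = 0.00176) for Ngef.
The phosphatase gene Ptpro, known to dephosphorylate Eph receptors, had 49.7 and 59.7 in the control cells and 19.7 and 18.8 in the Eva1 shRNA cells, a log2 change of -1.70 (SE 0.15, adjusted p = 0.00254). The adaptor gene Anks1b, a relative of the Eph-binding protein Odin, had 258 and 231 against 76.9 and 85.3, a log2 change of -1.77 (SE 0.16, adjusted p = 0.00253). The related gene Anks1, which encodes Odin, had 23.5 and 22.6 against 39.1 and 35.1 and a log2 change of 0.48 without passing (adjusted p = 0.0584). Chn1, Ngef, Anks1b and Ptpro kept their calls under all 12 other settings, although the change of Chn1 was -1.37 and that of Ptpro -1.13 with 16 units added.
The falls of Inppl1, the lipid phosphatase SHIP2 that binds Epha2, and of Ptpn13, a phosphatase that acts on ephrin-B ligands, were smaller, with log2 changes of -0.58 (adjusted p = 0.0371) and -0.62 (adjusted p = 0.0382). Both were lost with the authors' scaling, with blank cells filled, with the replicate number as a block (0.0653 and 0.0503) and whichever array was left out (highest adjusted p 0.169 for Inppl1, without Eva1 shRNA array 1, and 0.179 for Ptpn13, without Eva1 shRNA array 2). With 16 units added the change of Ptpn13 was -0.32. None of the 6 kinases measured (Src, Fyn, Yes1, Abl1, Abl2, Ptk2) and none of the 4 GTPases or their kinases (Rhoa, Rac1, Cdc42, Rock1) was called by limma, and none had an unadjusted p under 0.05. Beside them 26.0% of all genes were called, and 2740 higher and 2786 lower of 13765 had such a p.

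**Figure D3:**
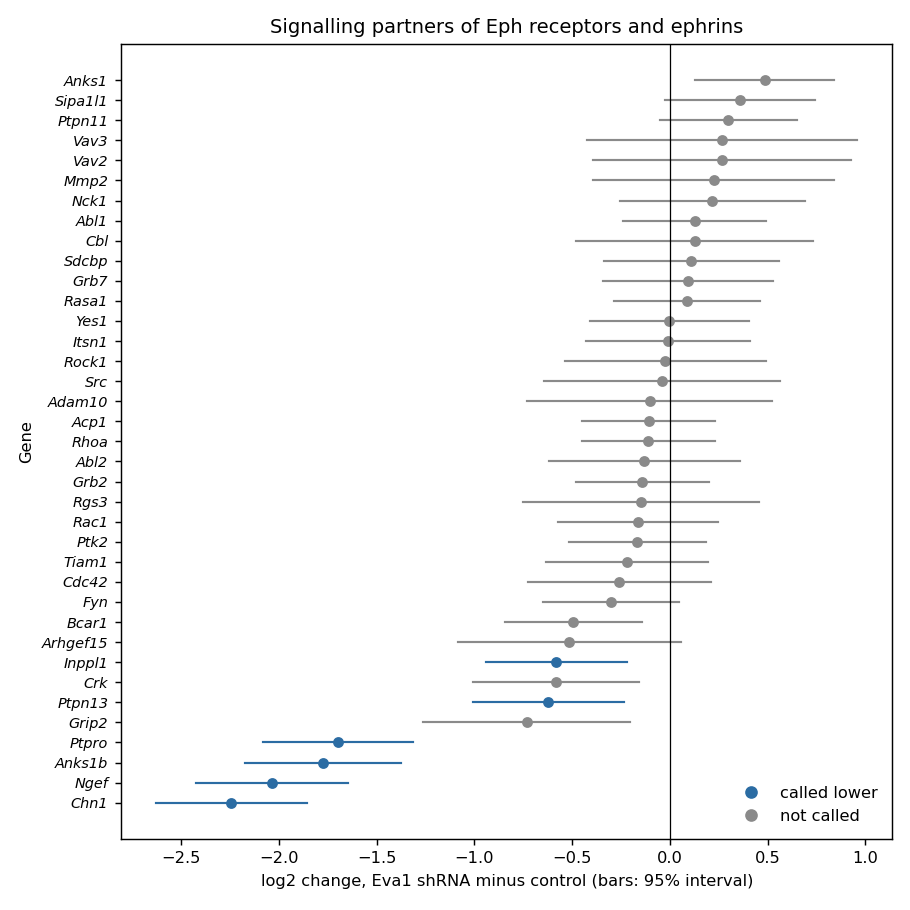
Log2 change (Eva1 shRNA minus control, horizontal axis) of the 37 signalling partners measured on all 4 arrays, in order of change, with 95% intervals that are not adjusted for the number of genes. Blue points were called lower and grey points were not called. Chn1, Ngef, Anks1b and Ptpro stand at -2.24 to -1.70, below all other partners on the list.

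How firmly each of the 10 genes was measured differed between them. Efnb2 stayed called throughout, while Epha4 kept its call in 10 of 11 settings, Epha7 in 10 of 12 and Efnb1 in 6 of 12. Of the genes not called as reported, Ephb3 was called in 4 of 12 other settings and Efna1 in 3 of 12, each in its own direction. Epha2, Epha3, Ephb2 and Ephb4 were called in 0 of 12, and their direction turned in some. Efnb2, Epha4, Epha7, Ephb3, Efna1 and Efnb1 did not change direction in any setting run. Some settings could not turn a direction, as they left each log2 change tested as it was. These were the filter on the dimmest probes, the replicate block, the variance prior that follows intensity and the mean of a gene's probes. Each of the 10 genes had 1 probe, so the mean of probes nearly repeats the reported fit for them.

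**Figure D4:**
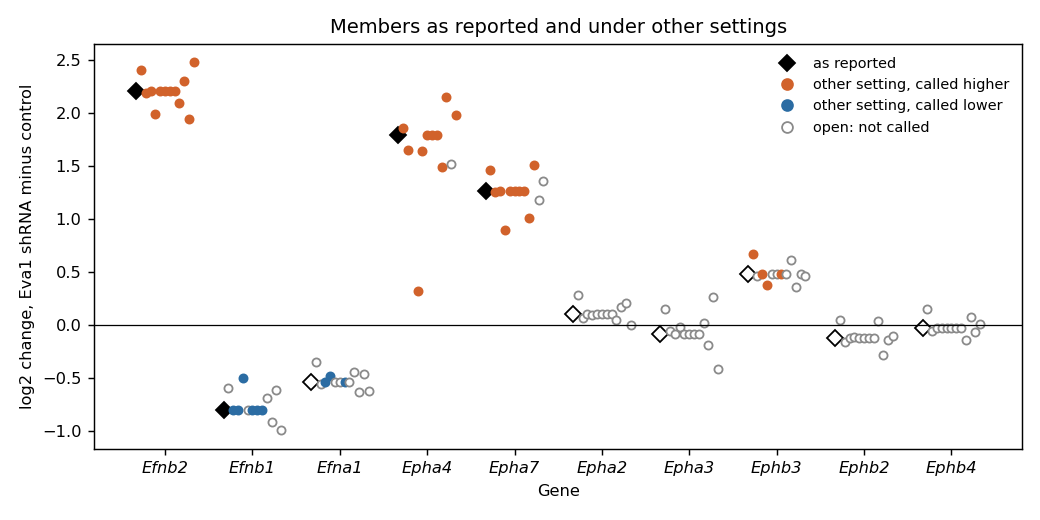
Log2 change (vertical axis) of the 10 genes as reported (diamonds) and under the other settings (circles, in a fixed order from left to right); filled symbols were called and open symbols were not. All 12 circles of Efnb2 are filled and lie between 1.94 and 2.47, while most circles of Ephb3 and Efna1 are open and those of Epha2, Epha3, Ephb2 and Ephb4 lie around 0.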

How the data were processed

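Amplified total RNA of 4 samples carried Cy5 as its single dye on a Toray mouse chip of the 3D-Gene type, per the labels' protocols. The authors deposited intensity values on a linear scale, set to a median near 25 on each array, as the values show; 6.95% to 12.0% of the cells of an array were blank. No scanner, background correction, rule for blanks or genome build of the probes is named in the sources used here. The platform annotation gives 16631 of the 23473 probes a gene symbol, and 3947 symbols were updated from synonyms through RefSeq's GRCm38.p6 gene table.

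The 19199 probes with a value on all 4 arrays were log2 transformed. Their median was 4.99 and 5.04 in the control cells and 5.27 and 5.19 in the Eva1 shRNA cells. Because of this spread of 0.27, absent from the medians of all filled cells, they were quantile normalized. The spread followed the groups, and normalization removed it. Blank cells were also more frequent in the control cells (12.0% and 10.8%) than in the Eva1 shRNA cells (6.95% and 8.35%). The source of the spread was not tested. The probe with the highest mean stood for a gene, which left 13765 genes, tested with lmFit and eBayes (limma 3.58.1, R 4.3.3). Intervals at 95% use the moderated SE and are not adjusted. Precision is limited by the number of arrays, which leaves each gene 2 residual degrees of freedom. The script was tested on simulated data. Promoter motifs were matched exactly, in Python 3.11.15, which also drew the plots (matplotlib 3.10.9).

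The members and lists were chosen with earlier results of these data known. The rule for named genes took every member, Mpzl2, the rest of the family, up to 8 called partners with the smallest p, and 3 genes nearest in pattern to the members with the largest rise and fall. Anks1, the kinases and GTPases without a call and the single markers named were chosen with their values known. The 12 alternatives were no further normalization (the authors' scaling), centring on the median, dropping the dimmest 25% of probes, 16 units added before log2, blank cells set to the array's lowest value, a replicate block, eBayes with trend, the mean of a gene's probes, and each array left out in turn.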

Additional observations from a re-analysis of the deposited data

How the results depend on the processing

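The count of members called lower, 1 as reported, was 0 with the authors' scaling and with blank cells filled, and 2 under the filter on the dimmest 25% of probes, under the offset of 16 units and under eBayes with trend. It was 0 to 0 with each array left out, where Efnb1 had log2 changes of -0.999 to -0.62 and 1 or 2 members had an unadjusted p under 0.05. The members called higher, 3 as reported, numbered 1 to 3 with each array left out, 1 being the count without Eva1 shRNA array 1. Partners called higher, 0 as reported, numbered 2 with the authors' scaling, 1 under that filter, 2 under the offset and 2 under eBayes with trend. In that order these settings called 29.1%, 42.5%, 35.7% and 36.3% of all genes tested, against 26.0% as reported. Over all genes, 2714 were called higher with the authors' scaling, 67.7% of the calls against 48.1% as reported, as this scaling moved the median of all genes from -0.01 to 0.18. With each array left out 541 to 1145 genes were called higher and 730 to 1156 lower, against 1720 and 1856, with the lowest counts without Eva1 shRNA array 1.

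Genes without a call turned direction in some settings. With the authors' scaling the log2 change was 0.15 for Epha3, 0.039 for Ephb2, 0.15 for Ephb4, 0.11 for Ephb1 and 0.10 for Efnb3. Median centring gave -0.017 for Epha8 and -0.0021 for Efna4, and Epha8 had -0.0032 with 16 units added and -0.022 with blank cells filled. With each array left out the changes ran from -0.0040 to 0.20 for Epha2, -0.42 to 0.26 for Epha3, -0.29 to 0.037 for Ephb2, -0.15 to 0.076 for Ephb4, -0.34 to 0.092 for Epha6, -0.64 to 0.89 for Epha8, -0.30 to 0.055 for Ephb1, -0.079 to 0.29 for Efna2, -0.059 to 0.083 for Efna4 and -0.35 to 0.10 for Efnb3. The cause of these shifts was not tested.

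Replicate numbers are shared by the groups, but nothing says that they pair the samples, and same-numbered deviations correlated at -0.01 across probes. With the replicate block 3 members were called higher and 1 lower (Efnb1, adjusted p = 0.0485), 4 partners were called lower, 1471 genes were called higher and 1631 lower, and Epha1 passed (0.0232). Signal near background limits Epha4, Epha1, Epha5, Epha6, Epha8 and Efnb3, whose intensities were below 10 on every array with a value.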
